A study of Mus musculus with 23 samples.

Results

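Stimulated mouse splenic CD4+ T cells labelled as knockout for the niacin receptor gene were compared with stimulated cells labelled wild type, neither having received niacin. The comparison rests on 6 of the 23 libraries of the series, 3 per genotype label, chosen by their labels alone. The genotypes are given as Gpr109a-/- and wild type, both on a C57BL/6 background. All 6 cultures were started from spleen cells sorted as CD45+CD3+CD4+CD8-. They were kept for 72 h with IL-2 at 30 IU/ml and with antibodies that engage CD3 and CD28. The 17 remaining libraries, from cells kept in IL-2 alone or given niacin at 5 mM, entered the fit so that all 8 groups shared an estimate of the spread, and are described where the same genes were measured in them. Nothing in the labels says whether replicates came from separate mice, so the p-values below measure the spread between these libraries, which may be technical.

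Gpr109a is the earlier name of Hcar2, a G protein-coupled receptor that binds niacin and the ketone body beta-hydroxybutyrate and couples to the inhibitory G protein of cAMP signalling. It is best known from adipocytes, macrophages and neutrophils. In T cells, engagement of CD3 together with CD28 drives exit from quiescence, growth and division. The comparison asks which transcripts differed with the receptor's genotype label once cells had gone through that programme.

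Hcar2 itself (ENSMUSG00000045502, chromosome 5, 123863570 to 123865499, minus strand) held 4, 0 and 13 counts in libraries 1, 2 and 3 of the knockout label and 0 in each of the 3 libraries of the wild-type label. Its reads therefore lay in 2 of the 3 libraries labelled knockout. All 8 knockout-labelled libraries of the other conditions also held Hcar2 reads (7 to 32 counts each), and the 9 wild-type-labelled ones held 1 count in total. Every direction below is that of the label. Pooled over a group, the level was at least 6.41-fold higher with the knockout label, taking 3 counts over the wild-type-labelled group as the limit that a count of 0 allows. Genes were tested with edgeR's quasi-likelihood test with Benjamini-Hochberg adjustment, and it did not call Hcar2 in stimulated cells without niacin (adjusted p = 0.314), but did in those with niacin (adjusted p = 0.0443). The deposited labels name no deleted part, so exchanged labels and a transcript left from an altered gene cannot be told apart. Hcar1, the neighbouring lactate receptor gene, held no count in any of the 6 libraries. Ffar2, a receptor for short-chain fatty acids, held 14, 42 and 15 counts with the knockout label and 30, 12 and 6 with the wild-type label, and these overlapped.

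The 6 libraries held between 23103740 and 30090018 counts. Mitochondrial transcripts took 0.471 to 0.566% of them. Levels are given as CPM, counts scaled to a common library size. Over genes, the correlation of log2 CPM between a pair of libraries ran from 0.9736 to 0.9815 across the labels and from 0.9791 to 0.9832 within a label. The defining T cell transcripts were present in all 6: Cd3e lay between 606 and 756 CPM and Cd4 between 459 and 564 CPM. Ncr1, Lyz2, Csf1r, Hbb-bs and Pf4, which mark natural killer cells, myeloid cells, red cells and platelets, were at 0 throughout. Values of the marker lists by label are given with the gene lists further on.

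Of 16882 genes tested, 19 were called by edgeR at an adjusted p under 0.05, which is 0.113% of them. Called means this edgeR test throughout, unless another tool is named. Higher with the knockout label were 8 (0.0474% of the genes tested) and lower were 11 (0.0652%). The groups did not overlap for any of the 19, as was the case for 3464 genes in all (20.5%). Most of the calls sat close to the threshold, 11 of them sharing the adjusted p of 0.0464. At an unadjusted p under 0.05 there were 1426 genes (8.45%), of which 481 had positive and 945 negative differences. The median log2 difference over all genes was -0.02. By annotation, 10 of the 19 were protein coding, 6 were pseudogenes and 3 belonged to other classes, and 7 lay under 5 CPM in the higher group.

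**Figure D1:**
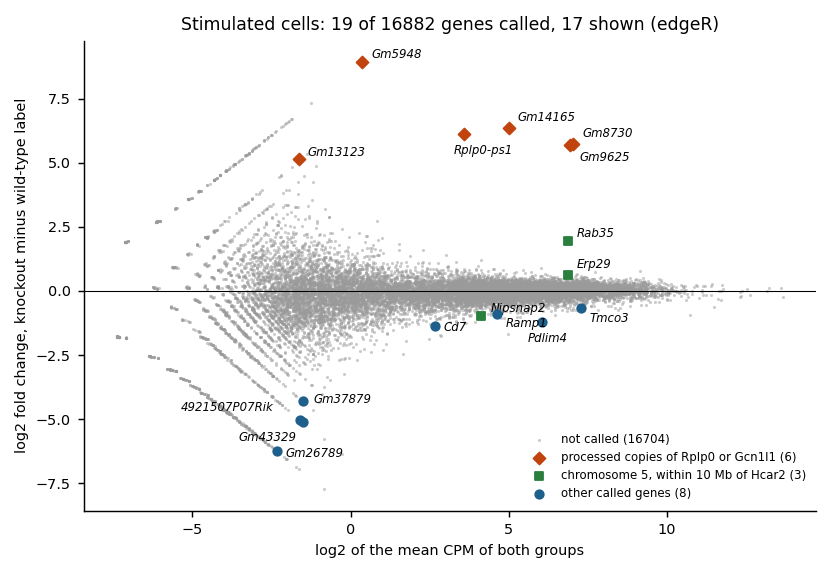
Each point is a gene; the horizontal axis is the log2 mean CPM of the 6 stimulated libraries and the vertical axis the log2 fold change, knockout minus wild-type label. Grey points are 16704 genes not called (159 further genes had no count in the 6 libraries and are not drawn), and coloured points are 17 of the 19 called genes, of which 6 are processed copies of chromosome 5 genes and 3 lie within 10 Mb of Hcar2; the fitted values of Gm5948 and Gm26789, each at 0 in a whole group, depend on the prior count.

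The highest positive differences belonged to processed copies of a ribosomal protein gene. Rplp0 encodes P0, the protein on which the stalk of the large ribosomal subunit is built. The gene lies on chromosome 5 at 115559467 to 115563727, and the genome carries intronless copies of its transcript on other chromosomes. The 5 called copies were Gm8730 (chromosome 8), Gm9625 (chromosome 13), Gm14165 (chromosome 2), Rplp0-ps1 (chromosome 3) and Gm5948 (chromosome 10), all annotated as processed pseudogenes. Aligned to the Rplp0 transcript they were 98.7%, 97.5%, 97.4%, 95.7% and 88.3% identical, in that order. Of the 50-base words of Gm8730, 39.4% also stand in the Rplp0 transcript, against 31.1% for Gm9625, 12% for Gm14165, 11.4% for Rplp0-ps1 and 0% for Gm5948. The reads were 50 bases long on each side, so a read from Rplp0 and a read from a copy are told apart by few bases, and the values of each single copy are uncertain.

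The first 4 copies share 7 substitutions relative to Rplp0. In the Rplp0 transcript, counted from 1 at its 5′ end, they are T193C, G259C, T313C, A511G, A514G, A817G and A905G, with the base of Rplp0 first and the base of the copies last. All 7 lie in the coding sequence (bases 122 to 1072 of 1358), and Gm5948 shares 4 of them, T193C, G259C, A511G and A905G. The stretch around A511G and A514G is printed because it holds the closest pair of these substitutions and shows how alike the copies are. It covers 60 bases from the GENCODE vM21 transcripts of build GRCm38, on the strand of each transcript, and capitals mark the bases at these 2 positions. In the genome the stretches are chr5:115561144-115561203 (exon 4 of Rplp0), chr8:102865376-102865435, chr13:67810609-67810668, chr2:152353976-152354035 and chr3:93278504-93278563.
Rplp0: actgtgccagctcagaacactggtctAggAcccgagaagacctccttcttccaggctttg
Gm8730: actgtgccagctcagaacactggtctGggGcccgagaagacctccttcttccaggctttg
Gm9625: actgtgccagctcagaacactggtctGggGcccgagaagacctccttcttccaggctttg
Gm14165: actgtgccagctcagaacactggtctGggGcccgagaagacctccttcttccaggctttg
Rplp0-ps1: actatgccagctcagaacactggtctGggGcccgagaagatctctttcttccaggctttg

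Gm8730 was measured at 159, 296 and 319 CPM in libraries 1 to 3 of the knockout label and at 5.5, 4.44 and 4.51 CPM in those of the wild-type label. Gm9625 lay at 149, 279 and 296 CPM against 4.45, 5.08 and 4.26 CPM. For both, every knockout-labelled library was far above every wild-type-labelled one, and library 1 was the lowest of its label. The log2 fold changes were 5.74 ± 0.41 for Gm8730 and 5.71 ± 0.35 for Gm9625 (SE; adjusted p = 3.8e-08 and 4.28e-09).

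Gm14165 lay at 38.1, 73.4 and 78.6 CPM with the knockout label and at 0.568, 1.02 and 0.716 CPM with the wild-type label. Rplp0-ps1 lay at 13.8, 27.9 and 29.4 CPM against 0.349, 0.379 and 0.286 CPM. The same order of libraries returned, with library 1 of the knockout label below libraries 2 and 3. Log2 fold changes were 6.35 ± 0.51 and 6.11 ± 0.49 (SE; adjusted p = 1.72e-07 and 1.61e-07). Gm5948 held 28, 71 and 75 counts with the knockout label and none with the wild-type label, so it was at least 65.6-fold higher (adjusted p = 0.0119). The calls of Gm8730, Gm9625, Gm14165 and Rplp0-ps1 were kept with any single library left out, whereas Gm5948 lost its call without library 1 or library 2 of the wild-type label (adjusted p up to 0.0624).

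Rplp0 differed in the other direction, and its call depended on the tool. It was measured at 1573, 922 and 959 CPM with the knockout label and at 2336, 2108 and 2167 CPM with the wild-type label, so the groups did not overlap, and library 1 was the highest of its label. The log2 difference was -0.94 ± 0.23 (SE; edgeR adjusted p = 0.173). DESeq2 and voom with quality weights called it lower (adjusted p = 0.0246 and 0.0159). With niacin, in other libraries, it was called lower (log2 fold change -1.26 ± 0.23, SE; adjusted p = 0.0105). Summed, the 5 copies took 361, 679 and 726 CPM with the knockout label against 10.9, 10.9 and 9.77 CPM, a mean of 589 ± 199 against 10.5 ± 0.648 (SD, n = 3 each) and a ratio of 56. Rplp0 and the copies together came to 1740 ± 174 against 2214 ± 119 CPM (SD, n = 3 each), a ratio of 0.786. For both sums the groups did not overlap, and a two-sided exact permutation test gave p = 0.1, the smallest that 3 against 3 libraries allows. For the sum of the copies that outcome was fixed beforehand, because each of the 5 was already higher without overlap. It therefore adds nothing to their single values. Of all reads assigned to Rplp0 or a copy, the copies took 18.7%, 42.4% and 43.1% in libraries 1, 2 and 3 of the knockout label, and 0.449 to 0.515% with the wild-type label.

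A sixth called pseudogene is a copy of the next gene on chromosome 5. Gcn1l1 lies at 115565254 to 115622654, directly after Rplp0, and encodes a ribosome-bound protein that helps activate the kinase Gcn2 when amino acids are short. Gm13123, on chromosome 4, is a 492-base processed copy that is 99.4% identical to it and differs at 3 bases, A7625G, A7665G and G7911A, counted from 1 at the 5′ end of the Gcn1l1 transcript with the base of Gcn1l1 first. The 65 bases that hold the first 2 of them are printed to show the copy beside its source, with capitals at the bases that differ; they come from the same GENCODE transcripts and lie at chr5:115620158-115620222 (exon 56 of Gcn1l1) and chr4:144247830-144247894.
Gcn1l1: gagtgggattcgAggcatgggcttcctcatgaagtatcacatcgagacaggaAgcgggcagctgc
Gm13123: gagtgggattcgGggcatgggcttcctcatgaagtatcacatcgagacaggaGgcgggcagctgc

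Gm13123 held 9, 12 and 22 counts in the knockout-labelled libraries and 0, 0 and 1 in the wild-type-labelled ones. The ratio of the levels was 48.6, with a 95% counting interval of 8.27 to 1960 (adjusted p = 0.0464), and the call was lost without any one of 5 of the 6 libraries (adjusted p up to 0.312), all but library 1 of the knockout label. Gcn1l1 itself was measured at 182, 185 and 239 CPM against 161, 136 and 156 CPM. The groups did not overlap, and it was not called (log2 difference 0.42 ± 0.23, SE; adjusted p = 0.652).

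Rab35, which encodes a small GTPase that recycles receptors from endosomes to the cell surface, is the next of these chromosome 5 genes, at 115631908 to 115647736. Its level was 118, 219 and 219 CPM in knockout-labelled libraries 1, 2 and 3 and 42.7, 45.4 and 54.6 CPM with the wild-type label. Library 1 again lay between the other knockout-labelled libraries and the wild-type label. Rab35 was higher with the knockout label by 1.96 ± 0.27 on the log2 scale (SE; adjusted p = 0.000943). Among 35 tested genes of Rab GTPases and endosome recycling it was the single call, and the list's median log2 difference was 0.01.

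Erp29, a chaperone-like protein of the endoplasmic reticulum encoded at 121428590 to 121452506, was the remaining gene called higher. It lay at 123, 152 and 149 CPM with the knockout label and at 90.0, 87.7 and 96.1 CPM with the wild-type label, without overlap. The log2 fold change was 0.63 ± 0.12 (SE; adjusted p = 0.0464). The call was kept in 1 of the 6 fits that left out 1 library (adjusted p up to 0.312) and was lost with RLE factors, without a filter and with the replicate block. It overlaps Naa25 and Tmem116 on the opposite strand. No source used here says whether counting used the strand, so reads of these genes cannot be told apart where they overlap; neither neighbour was called (adjusted p = 0.806 for each).

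On the far side of Hcar2, Nipsnap2, which encodes a mitochondrial protein and lies at 129725063 to 129758327, was lower with the knockout label. Its levels were 10.5, 12 and 12.9 CPM with the knockout label and 21.2, 21.7 and 26.7 CPM with the wild-type label, without overlap. The log2 fold change was -0.98 ± 0.18 (SE; adjusted p = 0.0464). The call was kept in 0 of the 6 fits that left out 1 library (adjusted p of 0.0919 to 0.244), and was lost with the replicate block and with only the compared libraries.

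All 5 genes called on chromosome 5, of 1160 tested there, thus lay within 10 Mb of Hcar2, among them Rab35 8.22 Mb and Erp29 2.41 Mb before it and Nipsnap2 5.86 Mb after it. They made up 1.91% of the 262 genes tested in that window, against 14 of 16620 genes (0.0842%) elsewhere. Between these genes most of the window gave no call: 64 of the 262 genes (24.4%) had groups that did not overlap, against 20.5% over all genes, and the window's median log2 difference was 0.00. With the 5 copies of Rplp0 and the copy of Gcn1l1 counted beside them, 11 of the 19 called genes lay in the window or were copies of a gene in it, and 8 were elsewhere.

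**Figure D2:**
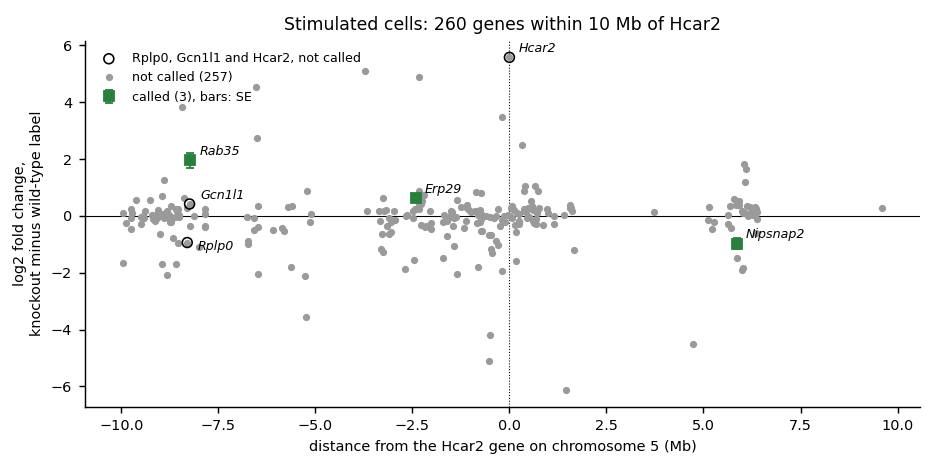
Each point is 1 of 260 of the 262 genes tested on chromosome 5 within 10 Mb of Hcar2; the horizontal axis is the distance from Hcar2 in Mb and the vertical axis the log2 fold change in stimulated cells, knockout minus wild-type label. Squares with SE bars are 3 of the called genes, Rab35 and Erp29 above 0 and Nipsnap2 below it, and open circles mark Rplp0, Gcn1l1 and Hcar2, which were not called.

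Of the called genes elsewhere in the genome, 4 were protein-coding genes above 5 CPM, and all 4 were lower with the knockout label. Cd7 (chromosome 11) encodes a surface glycoprotein of the immunoglobulin superfamily on T cells. It lay at 3.96, 2.72 and 3.85 CPM with the knockout label and at 11, 8.83 and 7.34 CPM with the wild-type label. The groups did not overlap. Means were 3.51 ± 0.69 CPM with the knockout label and 9.07 ± 1.87 CPM with the wild-type label (SD, n = 3 each). The log2 fold change was -1.37 ± 0.23 (SE; adjusted p = 0.0204). Gm11775, which overlaps Cd7 on the opposite strand, held 10 counts in all 23 libraries of the series together.

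Pdlim4 (chromosome 11) encodes a protein with a PDZ and a LIM domain that binds the actin cytoskeleton. It lay at 47.1, 41.8 and 30.8 CPM against 91.8, 105 and 81.1 CPM (log2 fold change -1.22 ± 0.23, SE; adjusted p = 0.0464). Ramp1 (chromosome 1) encodes the partner that turns the calcitonin receptor-like receptor into a receptor for the neuropeptide CGRP. It lay at 21.8, 14.4 and 15.4 CPM against 36.7, 30.5 and 29.5 CPM (log2 fold change -0.90 ± 0.18, SE; adjusted p = 0.0464). In neither gene did the groups overlap.

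Tmco3 (chromosome 8), which encodes a transmembrane protein with coiled-coil domains, lay at 136, 115 and 111 CPM against 181, 198 and 188 CPM, again without overlap. Its log2 fold change was -0.65 ± 0.12 (SE; adjusted p = 0.0464). For Cd7, Pdlim4, Ramp1 and Tmco3, as for Rplp0, the knockout-labelled library nearest the wild-type label was library 1. The calls of these 4 genes depended on single libraries. Cd7 and Pdlim4 kept theirs in 2 of the 6 fits that left out 1 library, and Ramp1 and Tmco3 in 1 of 6.

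**Figure D3:**
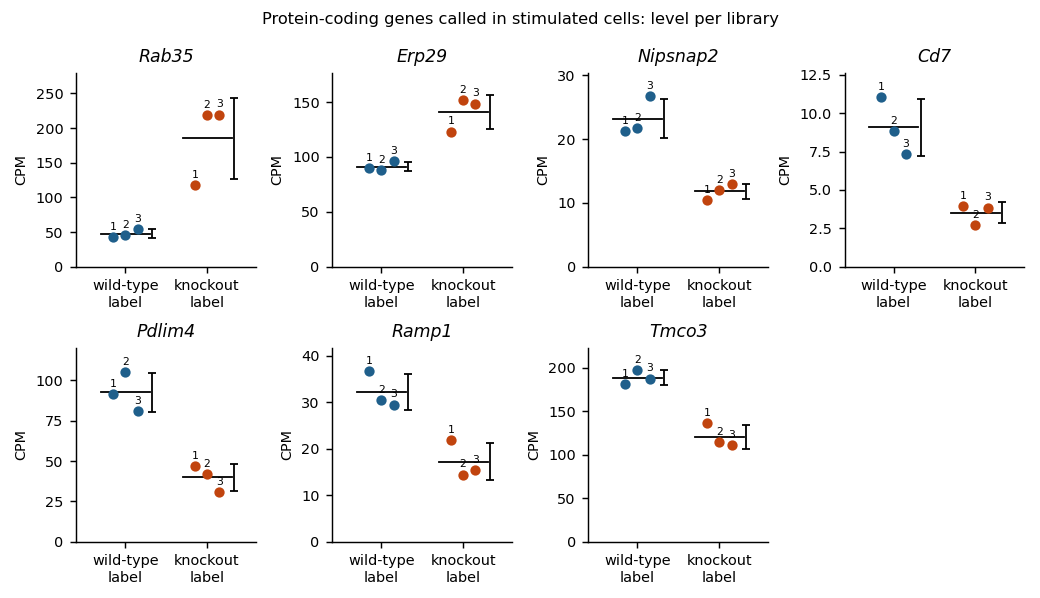
Level in CPM (vertical axis, from 0) of 7 protein-coding genes called at 5 CPM or more, in the 3 stimulated libraries of each genotype label; digits are library numbers, lines are group means and bars are SD. Rab35 and Erp29 were higher and the other 5 lower with the knockout label, and for Rab35 library 1 of the knockout label, at 118 CPM, lay apart from libraries 2 and 3 at 219 CPM.

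The 4 other called genes were transcripts with few reads, all lower with the knockout label and named here after their values were seen. Gm26789, an antisense transcript on chromosome 10, held no count with the knockout label and 10, 19 and 1 with the wild-type label, so it was at least 8.85-fold lower. Gm43329 (sense intronic, chromosome 3) held 0, 0 and 1 counts against 18, 20 and 15, and 4921507P07Rik (chromosome 6) held 0, 0 and 1 against 9, 11 and 31. Gm37879 (chromosome 9) held 1, 1 and 0 against 11, 15 and 27. Wild-type to knockout-label ratios were 46.9 for Gm43329, 45.1 for 4921507P07Rik and 23.4 for Gm37879, with 95% counting intervals of 8.06 to 1890, 7.74 to 1820 and 6.18 to 199. The intervals cover counting error only. Limits set by a count of 0 take the counts of the higher group as exact and leave out the spread between libraries. All 4 genes had an adjusted p of 0.0464, and each lost its call in at least 5 of the 6 fits that left out 1 library.

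Library 1 of the knockout label stood apart for Rplp0, 4 of its copies and Rab35, and less far for Ramp1 and Pdlim4. Its level divided by the mean of libraries 2 and 3 was 0.516 for Gm8730, 0.52 for Gm9625, 0.501 for Gm14165, 0.483 for Rplp0-ps1 and 0.54 for Rab35, and 1.67 for Rplp0. Over the 9514 genes at 5 CPM or more the median of this ratio was 0.994, with 5th and 95th percentiles of 0.778 and 1.28, so these 6 genes lay outside that range. Ramp1 at 1.46 and Pdlim4 at 1.3 also lay outside it. Gcn1l1 at 0.857, Erp29 at 0.82, Nipsnap2 at 0.842 and Cd7 and Tmco3 at 1.21 lay within it. The same number stood apart in stimulated knockout-labelled cells with niacin, where the ratios were 0.502, 0.493, 0.472 and 0.48 for the 4 copies, 0.604 for Rab35 and 1.56 for Rplp0. Ramp1 at 1.37 and Gcn1l1 at 0.71 lay outside the 5th to 95th percentiles there too, which were 0.776 and 1.31. The share of Rplp0-type reads on the copies was 18.7% in library 1 without niacin, 18.8% in library 1 with niacin and 18.6% in library 1 of unstimulated knockout-labelled cells. In the other 8 knockout-labelled libraries of the series it ran between 39.9% and 43.1%. The fourth knockout-labelled group, unstimulated with niacin, is represented by libraries 2 and 3. What a library number stands for is not part of the labels.

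**Figure D4:**
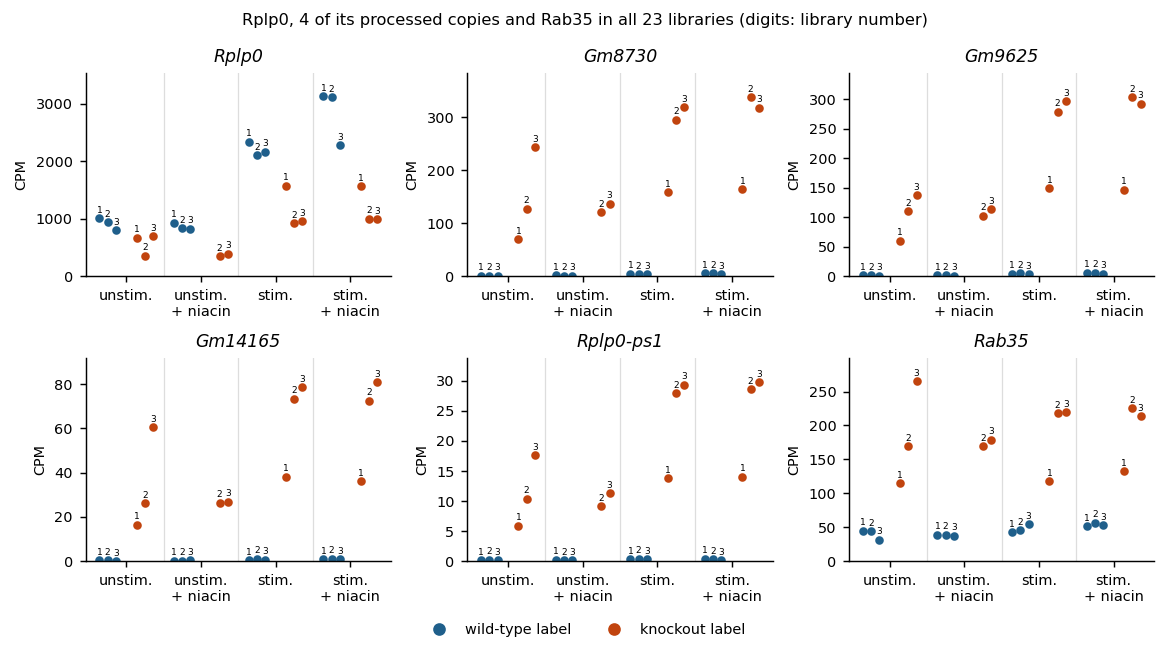
Level in CPM (vertical axis, from 0) of Rplp0, 4 of its processed copies and Rab35 in all 23 libraries, by condition (horizontal axis) and genotype label (colour), with digits for library numbers. In stimulated cells library 1 of the knockout label lay at 159 CPM for Gm8730 and at 1573 CPM for Rplp0, against 296 and 319 CPM and 922 and 959 CPM in libraries 2 and 3.

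The other 3 conditions share no library with this comparison, though all enter the same fit. The labels leave unsaid whether libraries of different conditions came from the same animals, and library 1 had the lowest share of reads on the copies in each of 3 knockout-labelled groups, so the conditions may not be independent of each other. In stimulated cells with niacin, 16 of the 19 had the same sign and 14 were called with that sign, where 243 of all genes tested were called (1.44%). Over all genes, 64.9% had the same sign there as without niacin. In unstimulated cells 17 had the same sign and 6 were called (7 of all genes, 0.0415%), and in unstimulated cells with niacin 15 had the same sign and 6 were called (6 of all genes, 0.0355%), with 47.7% and 46.9% of all genes sharing the sign. Among the 6 genes called in all 4 conditions were Gm8730, Gm9625, Gm14165, Rplp0-ps1 and Rab35.

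Cd7, Pdlim4, Ramp1 and Tmco3 were called lower in both stimulated conditions and in neither unstimulated one. With niacin their log2 fold changes were -1.65 ± 0.23, -1.39 ± 0.23, -1.03 ± 0.18 and -0.86 ± 0.12 (SE; adjusted p = 0.00144, 0.00495, 0.00571 and 0.00187). Unstimulated, the log2 differences were -0.28 ± 0.22, 0.08 ± 0.22, -0.07 ± 0.17 and -0.23 ± 0.13 (SE; adjusted p = 0.662, 0.936, 0.926 and 0.523). The change of the difference with stimulation, tested as such, did not pass for any of these 4 genes (adjusted p = 0.42 for Cd7, Pdlim4 and Ramp1 and 0.451 for Tmco3). Of the low transcripts, Gm26789 lay at 0.99 ± 0.218 CPM with the knockout label against 0.221 ± 0.058 CPM in stimulated cells with niacin (SD, n = 3 each), the opposite order to that without niacin, and was not called there (adjusted p = 0.0782).

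**Figure D5:**
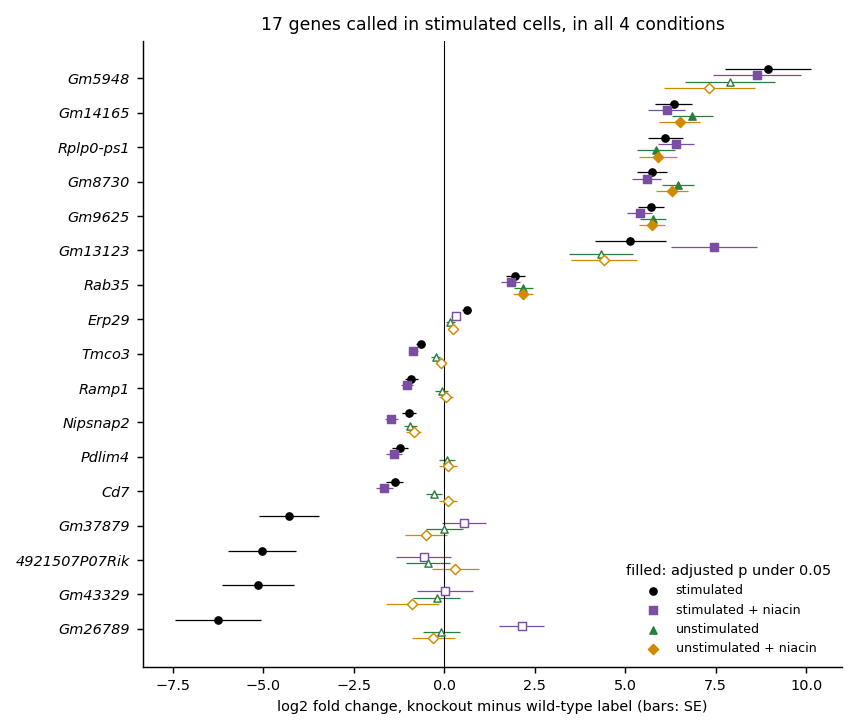
Log2 fold change, knockout minus wild-type label, with SE bars (horizontal axis) of 17 of the 19 genes called in stimulated cells, in each of the 4 conditions; filled symbols are called in that condition. Gm8730, Gm9625, Gm14165, Rplp0-ps1 and Rab35 are filled in all 4, and Erp29 and 4 genes with few reads are filled in stimulated cells without niacin alone; fitted values of genes at 0 in a group, such as Gm5948, depend on the prior count.

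Read from the other side, of the 243 genes called in stimulated cells with niacin, 233 had the same sign without niacin, 137 also had an unadjusted p under 0.05 there and 14 were called. The edgeR test of whether the genotype difference changed with niacin called no gene, with Gm26789 lowest at an adjusted p of 0.0929. At an unadjusted p under 0.05 there were 874 genes. DESeq2 called 5, and voom and the fit without a filter called more, with counts given in the last section. The edgeR test of whether the genotype difference changed with stimulation called 1 gene (0.00592% of those tested, with 1773 at an unadjusted p under 0.05).

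That gene was Nrn1, which encodes neuritin, a membrane-anchored protein known from neurons and expressed by regulatory and anergic T cells. In stimulated cells it lay at 25.2, 21.3 and 19.6 CPM with the knockout label and at 37.0, 40.6 and 36.4 CPM with the wild-type label. In unstimulated cells it lay at 13.2, 9.78 and 16.1 CPM against 6.96, 6.00 and 7.33 CPM. The groups did not overlap in either condition, with the knockout label below the wild-type label in stimulated and above it in unstimulated cells. Neither difference was called by itself in edgeR (log2 difference -0.79 ± 0.17 stimulated and 0.94 ± 0.18 unstimulated, SE; adjusted p = 0.0964 and 0.074), but their difference was (-1.72 ± 0.25, SE; adjusted p = 0.0156). That call was lost in 4 of the 6 fits that left out 1 stimulated library (adjusted p of 0.0516 to 0.11 without library 2 or 3 of the knockout label or library 1 or 2 of the wild-type label). DESeq2 and voom called the stimulated difference of Nrn1 lower (adjusted p = 0.00206 and 0.00236).

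A further 15 genes had an edgeR adjusted p between 0.05 and 0.1, 2 with positive and 13 with negative differences. Ifngr2, the signal-transducing chain of the interferon gamma receptor, had a mean of 33.9 CPM with the knockout label against 60.0 CPM (log2 difference -0.83 ± 0.17, SE; adjusted p = 0.0568). Etv3, an ETS-family repressor, had 47.1 against 78.6 CPM (-0.74 ± 0.15; adjusted p = 0.0568), and Esr1, the oestrogen receptor alpha gene, 2.35 against 8.66 CPM (-1.87 ± 0.39; adjusted p = 0.0645). Fbxo32, a muscle-atrophy ubiquitin ligase component, had 8.24 against 15.3 CPM (-0.89 ± 0.19; adjusted p = 0.0806). These genes did not pass in edgeR and were picked after their values were seen. DESeq2 called all 4 lower (adjusted p = 0.000757 for Ifngr2, Etv3 and Esr1 and 0.00269 for Fbxo32), as did voom (adjusted p = 0.00493, 0.00439, 0.00194 and 0.0376). With niacin, Ifngr2 and Fbxo32 were called lower (-0.91 and -1.07 on the log2 scale, adjusted p = 0.0103 and 0.00745), and Etv3 and Esr1 were not (adjusted p = 0.101 and 0.0854).

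Gene lists were read by their counts and medians beside those of all genes. Of 42 lists, 40 held no gene called by edgeR, where 0.113% of all genes tested were called. At that share, empty lists are not read as a result about their genes. The exceptions were Ramp1 in the list of naive and quiescent T cells and Rab35 in that of Rab GTPases. With DESeq2 31 lists, with voom 27, and with edgeR without a filter on low counts 22, held none. Of the list genes named below, Txnip, Klf3, Ndrg1, Ankrd37, Aldoc and Gpr183 were called lower by both DESeq2 (adjusted p of 0.0157 to 0.0289) and voom (0.00238 to 0.036). Pdcd1 was called higher by DESeq2 alone (adjusted p = 0.0185), and Ccr7 and Pde3b lower by voom alone (adjusted p = 0.0472 for each). The adjusted p-values that follow are those of edgeR. In the naive and quiescent list, 25 of 26 genes had negative differences and the median log2 difference was -0.28. Unadjusted p-values under 0.05 were reached by 10 of them, all negative (5.6% of all genes were so), and groups did not overlap, with the knockout label lower, for 17 (11.2% of all genes). Txnip, which restrains glucose uptake, had a mean of 261 ± 36.3 against 442 ± 66.5 CPM, and Klf3, a factor of quiescent lymphocytes, 27.4 ± 7.91 against 49.4 ± 2.11 CPM (SD, n = 3 each; adjusted p = 0.152 and 0.16). Ccr7, the homing receptor of lymph nodes, had 528 ± 57.6 against 766 ± 112 CPM, and Lef1, a transcription factor of naive cells, 416 ± 29.6 against 536 ± 14.3 CPM (adjusted p = 0.314 and 0.451).

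Several lists shared that sign. Among 21 homing receptors and integrins 14 had negative differences (median -0.15). Groups did not overlap for 8 of them, all with the knockout label lower, where 11.2% of all genes were lower in that way. The 2 with the smallest p were Gpr183, the receptor for oxysterols that guides cells in follicles, at 29.0 ± 7.39 against 50.8 ± 4.49 CPM, and S1pr1, the receptor for lymph node exit, at 116 ± 13.8 against 179 ± 12.4 CPM (SD, n = 3 each; adjusted p = 0.206 and 0.371). Of 10 MHC class II genes 9 had negative differences (median -0.27), H2-Ob lying at 7.32 ± 3.91 against 17.7 ± 3.46 CPM (adjusted p = 0.283). Of 23 hypoxia response genes 20 did (median -0.28). Of those, 10 had groups without overlap, where 11.2% of all genes were lower in that way. There Ndrg1 lay at 467 ± 67.4 against 691 ± 41.7 CPM and Ankrd37 at 83.0 ± 9.91 against 124 ± 12.2 CPM (adjusted p = 0.221 and 0.248). Aldoc, a glycolysis gene, lay at 284 ± 44.5 against 447 ± 77 CPM (adjusted p = 0.215), in a list of 24 with 17 negative and 7 positive differences. Of 80 cytosolic ribosomal protein genes 68 had negative differences, with a median of -0.13, and Rplp0 had the smallest p among them.

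The opposite sign prevailed in the lists of growth and division. All 36 tested DNA replication genes had positive differences, with a median log2 difference of 0.28, and 27 of the 36 had groups that did not overlap (9.34% of all genes were higher in that way). None was called by edgeR, DESeq2 or voom, and 1, Orc1 of the origin recognition complex, had an unadjusted p under 0.05 (45.0 ± 7.93 against 27.4 ± 2.34 CPM, SD, n = 3 each; adjusted p = 0.558). Mcm4, a subunit of the replicative helicase, lay at 430 ± 34.1 against 332 ± 35.6 CPM (adjusted p = 0.66). Of 37 ribosome biogenesis genes 35 had positive differences (median 0.28), and 7 of them an unadjusted p under 0.05, where 2.85% of all genes had one with that sign. Ubtf, the upstream binding factor of RNA polymerase I, lay at 176 ± 31 against 134 ± 19.7 CPM and Utp4 at 116 ± 18.7 against 84.2 ± 11.2 CPM (adjusted p = 0.446 and 0.494). Mitosis genes had a median of 0.04, with 22 positive and 10 negative of 32. Members of a list are co-expressed within a library, so these counts do not weigh as separate measurements.

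The lists of activation and effector function did not share a sign. Th17 genes had a median log2 difference of -0.46 (3 positive, 6 negative) and follicular helper genes -0.31 (4 positive, 10 negative). T cell activation genes had a median log2 difference of 0.10 (20 positive, 10 negative), T cell cytokines 0.19 (19 positive, 7 negative), Th1 genes 0.11 (11 positive, 6 negative), Th2 genes 0.11 (9 positive, 4 negative) and regulatory T cell genes 0.05 (13 positive, 10 negative). Pdcd1, which encodes the inhibitory receptor PD-1, had the smallest p of the activation list, at 13.8 ± 4.29 against 6.28 ± 0.546 CPM (SD, n = 3 each; log2 difference 1.14 ± 0.28, SE; adjusted p = 0.16). Type I interferon response genes had a median of -0.02 (19 positive, 24 negative of 43), with groups not overlapping for 3 of them (6.98%, against 20.5% of all genes). Genes that respond to cAMP, the messenger that Hcar2 lowers when engaged, had a median of -0.15 (10 positive, 13 negative). Among these Pde3b, a phosphodiesterase, lay at 86.6 ± 6.09 against 133 ± 13 CPM (adjusted p = 0.519). In the list of Hcar2 and other genes that sense or carry short-chain and hydroxycarboxylic acids, 6 of 8 tested genes had a count in these libraries. Slc16a1 and Slc16a3, which carry lactate, lay at 191 ± 11.3 against 161 ± 36.4 CPM and 921 ± 40.6 against 883 ± 30.7 CPM (adjusted p = 0.843 and 0.998).

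Markers of other cells gave no call in any of their lists, by edgeR, DESeq2 or voom, although 1 B cell and 1 NK or gamma delta T cell marker was called higher by edgeR without a filter. The 9 CD4 T cell markers summed to 4950 to 5340 CPM with the knockout label and 5400 to 5760 CPM with the wild-type label, without overlap, with none at 0. This moved with the genotype label beside the homing and quiescence genes above, and its part in them was not tested. The 2 CD8 T cell markers summed to 16.8 to 21.2 against 16.8 to 20.6 CPM, though Cd8a by itself lay at 1.49 to 3.42 against 0.417 to 1.18 CPM (adjusted p = 0.6). B cell markers summed to 602 to 649 against 570 to 673 CPM. Myeloid and dendritic cell markers summed to 89.3 to 114 against 106 to 123 CPM, natural killer and gamma delta T cell markers to 113 to 126 against 102 to 136 CPM, and red cell and platelet markers to 1.61 to 2.08 against 1.79 to 2.79 CPM. Of these 3 lists, 6 of 16, 3 of 13 and 6 of 11 genes were at 0 in all 6 libraries. In RNA from whole cultures, fewer cells of a type and less RNA per cell cannot be told apart.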

How the data were processed

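RNA amplified with a SMART-seq V4 kit was sequenced in paired reads of 50 bases, per the labels' protocols. The deposited values were raw counts of reads per gene, made by the authors with Trimmomatic 0.38, STAR 2.7.0e and featureCounts 1.6.3 on GRCm38 (mm10), per the submitters' processing notes. Coordinates are the deposited ones; 53274 of 53379 gene IDs had a symbol in GENCODE vM21 and 51335 the same position.

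The main test was edgeR's quasi-likelihood F test (version 4.0.16, 8 group means over 23 libraries, TMM, filterByExpr with a minimum count of 10, Benjamini-Hochberg adjustment over 16882 genes, threshold 0.05; 15 residual degrees of freedom, common biological coefficient of variation 27.4%). SEs came from the F statistic, and CPM used TMM factors. Limits for groups at 0 used 3 counts over the group. The fit was tested on simulated data with 50 genes changed at each fold, all at 5 CPM or more. It recovered 20% of 1.5-fold, 56% of 2-fold, 98% of 4-fold and 100% of 8-fold changes, with 6 false calls. The simulation changed more genes than the data gave calls, which eases the adjusted threshold, and no library in it was made to stand apart. Recovery in the data may therefore be lower. Copies were aligned with Biopython 1.88.

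The comparison, its 42 gene lists and the tests were chosen with earlier results of these data known. Named genes are the receptors, Rplp0 and its copies, Rab35, called genes within 10 Mb of Hcar2, up to 12 called genes per direction at 5 CPM or more without overlap (Gm and Rik symbols left out, which left 4 low transcripts and Gm13123 to be named after their values were seen), and per list up to 6 called or the 2 with the smallest p; others named from lists were picked after seeing values. Alternatives were DESeq2 1.42.0, RLE factors, no filter, a replicate block, limma 3.58.1 voom with quality weights, only the compared groups, and leaving out each library. R was version 4.3.3. Of the called genes, 2 are counted but not otherwise reported here.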

Additional observations from a re-analysis of the deposited data

Results flagged for a closer look

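The genotype difference of Nrn1 changed with stimulation by a test of that change itself: the log2 difference, knockout minus wild-type label, was lower by 1.72 ± 0.25 (SE) in stimulated than in unstimulated cells, a value of -1.72 (edgeR, Benjamini-Hochberg adjusted p = 0.0156). All 3 stimulated knockout-labelled libraries lay below all 3 wild-type-labelled ones, and all 3 unstimulated ones above. The edgeR call was lost with only the compared groups (adjusted p = 0.357). It was also lost without stimulated library 2 or 3 of the knockout label, or 1 or 2 of the wild-type label (adjusted p of 0.0516 to 0.11). Groups of 3 libraries were not tested for single libraries that stand apart.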

How the results depend on the processing

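Calls in stimulated cells were 8 higher and 11 lower. They were 22 and 80 with DESeq2, 49 and 159 without a filter on low counts, 47 and 122 with voom quality weights, 6 and 11 with RLE factors, 7 and 14 with only the 6 compared libraries, and 6 and 7 with the replicate block. Leaving out 1 of the 6 libraries gave 5 to 8 higher and 1 to 12 lower. Chosen after seeing the data, 9 and 26 were called without library 3 of unstimulated knockout-labelled cells, and 6 and 3 without libraries 1 and 2 of stimulated wild-type-labelled cells with niacin. With the copies summed into Rplp0 and Gcn1l1, 1 higher (Rab35) and 1 lower were left. Of the 19 calls, 6 (among them the 4 copies Gm8730, Gm9625, Gm14165 and Rplp0-ps1, and Rab35) were kept in every one of the 15 settings (14 for the copies) that tested them; DESeq2 kept all 19 and voom 18. Genes whose difference changed with stimulation numbered 1, but 6 with DESeq2, 457 without a filter, 0 with only the compared groups (Nrn1 adjusted p = 0.357) and 0 to 2 with a library left out. Genes whose difference changed with niacin numbered 0, but 5 with DESeq2, 80 without a filter, 185 with voom and 0 to 1 with a library left out. The cause of these moves was not tested. Same-numbered libraries of the 2 labels did not deviate together (correlations of 0.044, 0.019 and 0.023), so the numbers were not taken to pair them. Medians of the naive, DNA replication, ribosome biogenesis and hypoxia lists kept their sign in the 14 settings compared, which leave out the fit without a filter.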
